A study of Mus musculus with 7 samples.

Results

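DRG and DWG are 3-residue motifs (aspartate, then arginine or tryptophan, then glycine) in the CDR3 of the T cell receptor β chain, the loop that contacts the peptide. The rearrangements described here were all in-frame, or productive, rearrangements whose CDR3 amino acid sequence contained DRG or DWG and neither GTG nor GQG, the residues of other reading frames of the D segments. They numbered 601 of 6907 in-frame rearrangements in 7 mice. DRG was found in 194 of them, with 1395 template molecules, and DWG in 407, with 945 templates. No CDR3 of the 601 was counted under both motifs. Leaving out CDR3s with GTG or GQG removed 5 further DRG and 6 further DWG rearrangements, 8 of the 11 with the J gene TCRBJ02-02.

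The CD8 tumor-infiltrating T cells (CD8 TILs) came from subcutaneous tumors of A223, a mouse squamous cell carcinoma line, in C57BL/6 mice aged 6 to 8 weeks. Every mouse was given an anti-PD-L1 monoclonal antibody, which blocks an inhibitory ligand of T cells, once its tumor measured about 250 to 350 mm3. Mice 1R, 2R and 3R were the responders (R, 3 mice) and mice 4NR to 7NR the non-responders (NR, 4 mice). They were told apart by the change of their own tumor's volume, and no PBS-treated mouse was analysed here. There was 1 library of genomic DNA per mouse, with 2332 productive templates in 6NR to 15182 in 7NR and 333 to 1409 in-frame rearrangements, so 1 template was worth 0.0429% of the repertoire in 6NR and 0.00659% in 7NR. Genomic DNA of the rearranged locus carries no expression, so the CD8 label was not checked against markers.

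The β chain is assembled from a V, a D and a J segment. The recombination enzymes trim the segment ends, and terminal transferase adds untemplated N bases at the V-D junction (N1) and the D-J junction (N2), so the middle of the CDR3 is the part with the least germline sequence. Mice have a pair of β D segments. In the locus order of the RefSeq annotation of GRCm38.p6, Trbd1 precedes all J genes, and Trbd2 lies after the cluster 1 J genes (Trbj1) and before the cluster 2 J genes (Trbj2). Trbd1 can therefore be joined by deletion to a J gene of either cluster, and Trbd2 to one of cluster 2.

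The germline D segments are shown because both motifs are the same reading frame of the 2 segments. They were read from rearrangements of these mice in which the deposited trimming at both D ends was 0, and all 87 such TCRBD01-01 and all 54 such TCRBD02-01 rearrangements carried the sequence below. The capitals mark the 3 codons of the motif.
TCRBD01-01: ggGACAGGGGGc
TCRBD02-01: ggGACTGGGGGggc
TCRBD01-01 has 12 bases and TCRBD02-01 has 14. Read from base 3 they encode DRG and DWGG, from base 1 both encode GTGG, and from base 2 they encode GQG and GLGG.

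The rearranged CDR3s that carried most templates or bear on the J genes are shown next, from the conserved cysteine on, with the motif codons in capitals. The 87-base sequence ends 1 codon before the last CDR3 residue. The first 2 are the largest DRG clones (5NR, also found in 3R, 6NR and 7NR; and 1R), the next 2 the most frequent DWG clones (6NR and 2R), and the last 2 the DWG CDR3s with a J gene of cluster 1 (1R and 7NR).
DRG, TCRBV13-03, TCRBJ02-03: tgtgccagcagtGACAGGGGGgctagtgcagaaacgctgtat
DRG, TCRBV29-01, TCRBJ01-02: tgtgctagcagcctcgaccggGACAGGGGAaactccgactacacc
DWG, TCRBV19-01, TCRBJ02-07: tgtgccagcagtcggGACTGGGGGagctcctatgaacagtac
DWG, TCRBV19-01, TCRBJ02-02: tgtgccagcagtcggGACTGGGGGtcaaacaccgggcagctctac
DWG, TCRBV02-01, TCRBJ01-06: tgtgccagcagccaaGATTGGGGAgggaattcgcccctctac
DWG, TCRBV13-02, TCRBJ01-01: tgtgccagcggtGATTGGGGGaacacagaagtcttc

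DWG CDR3s outnumbered DRG CDR3s in every mouse. DRG took 2.20%, 3.66% and 2.02% of the in-frame rearrangements of 1R, 2R and 3R, and 2.22%, 3.46%, 3.90% and 3.27% of those of 4NR, 5NR, 6NR and 7NR. DWG took 6.39%, 5.87% and 5.23% in the R mice and 5.38%, 6.19%, 5.11% and 6.25% in the NR mice. The ranges of the motifs over mice did not overlap, and DWG rearrangements were 1.31 times (6NR) to 2.90 times (1R) as many as DRG rearrangements. The mean difference within a mouse was -2.81 percentage points (SD 0.927, n = 7 mice), lower for DRG in 7 of 7 mice, with a two-sided exact sign-flip permutation p of 0.0156, the smallest that 7 mice allow. Adjusted over the 7 measures of share, J use, clone size and sharing, the p was 0.0547. The rearrangements of 6NR were few, and its 95% Wilson intervals were 2.30% to 6.56% for DRG and 3.21% to 8.02% for DWG. In 2R they were 2.54% to 5.23% and 4.42% to 7.77%. The intervals overlapped in each of these mice, so the motifs were not separated in 6NR or in 2R by the mouse's own counts.

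**Figure D1:**
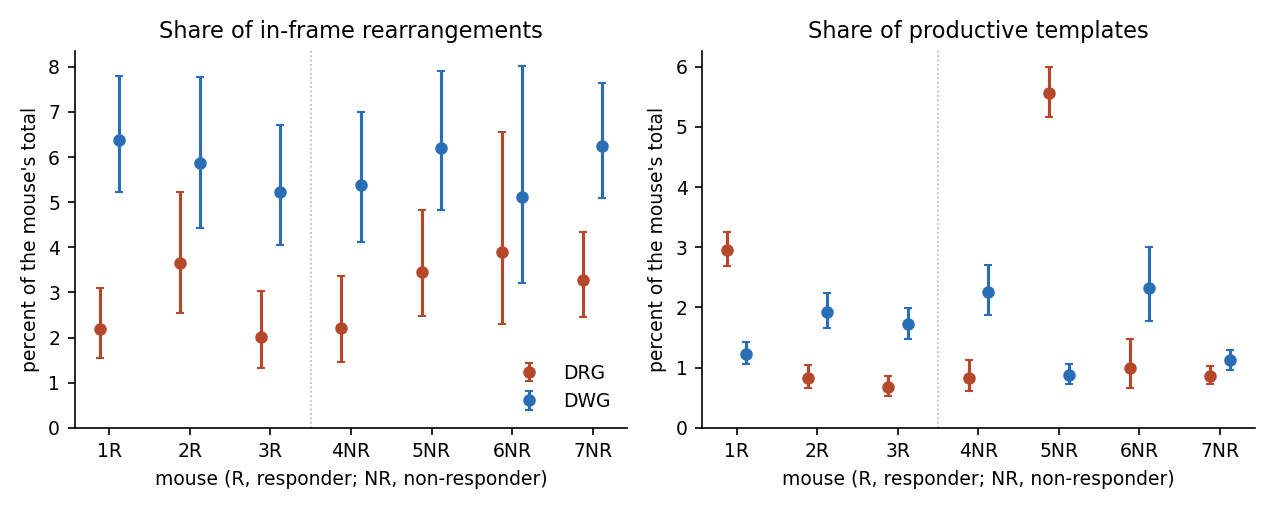
Share of each mouse's in-frame rearrangements (left) and productive templates (right) with a DRG (red) or DWG (blue) CDR3, in percent. Points are the 7 mice and bars are 95% Wilson intervals, which cover counting error only. DWG lies above DRG in all 7 mice on the left, whereas on the right DRG lies above DWG in 1R (2.96% against 1.22%) and 5NR (5.56% against 0.877%).

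Counted by templates, the order of the motifs differed between mice. DRG held 2.96%, 0.830% and 0.678% of productive templates in 1R, 2R and 3R, and 0.830%, 5.56%, 0.986% and 0.863% in 4NR, 5NR, 6NR and 7NR. DWG held 1.22%, 1.93% and 1.72% in the R mice and 2.25%, 0.877%, 2.32% and 1.12% in the NR mice. DRG was the higher motif in 2 of 7 mice, 1R and 5NR, each of which held 1 large DRG clone. The mean difference was 0.181 percentage points (SD 2.27, n = 7), and its exact sign-flip permutation p was 0.875. Without 5NR the difference was -0.570, and without 1R it was -0.0776.

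The shares of R and NR mice overlapped for both motifs and both ways of counting. DRG took 2.62% ± 0.897 of in-frame rearrangements in R (SD, n = 3) and 3.21% ± 0.716 in NR (SD, n = 4), and DWG took 5.83% ± 0.580 and 5.73% ± 0.576. Of productive templates, DRG took 1.49% ± 1.27 in R and 2.06% ± 2.34 in NR, and DWG took 1.62% ± 0.362 and 1.64% ± 0.749. The two-sided exact permutation p over the 35 divisions of the mice were 0.314 and 0.83 for rearrangements and 0.771 and 0.971 for templates, all 0.971 after adjustment over the 4 tests. With 3 and 4 mice the smallest possible p is 0.0286. The difference between the motifs did not pass the threshold between R and NR in any of 13 measures either, with a lowest exact permutation p of 0.200.

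The D calls of the files separated the motifs. Of the 194 DRG rearrangements, 156 (80.4%) had the call TCRBD01-01, 26 a tie of both segments and 12 TCRBD02-01. Of the 407 DWG rearrangements, 404 (99.3%) had TCRBD02-01, 3 a tie and 0 TCRBD01-01. The caller reads the same bases as the motif rule, so the calls are a description and no test was made. Most motifs held the first 8 bases of their germline codons, GACAGGGG in 160 DRG (82.5%) and GACTGGGG in 388 DWG rearrangements (95.3%). Arginine is written by several codons of the genetic code and tryptophan by a single one. In the DRG members, arginine was written with the germline AGG in 166, with CGN in 23 and with AGA in 5 of 194. The DRG members without the germline bases numbered 34, and the commonest of these spelled the motif gatcggggg, in 8 rearrangements.

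**Figure D2:**
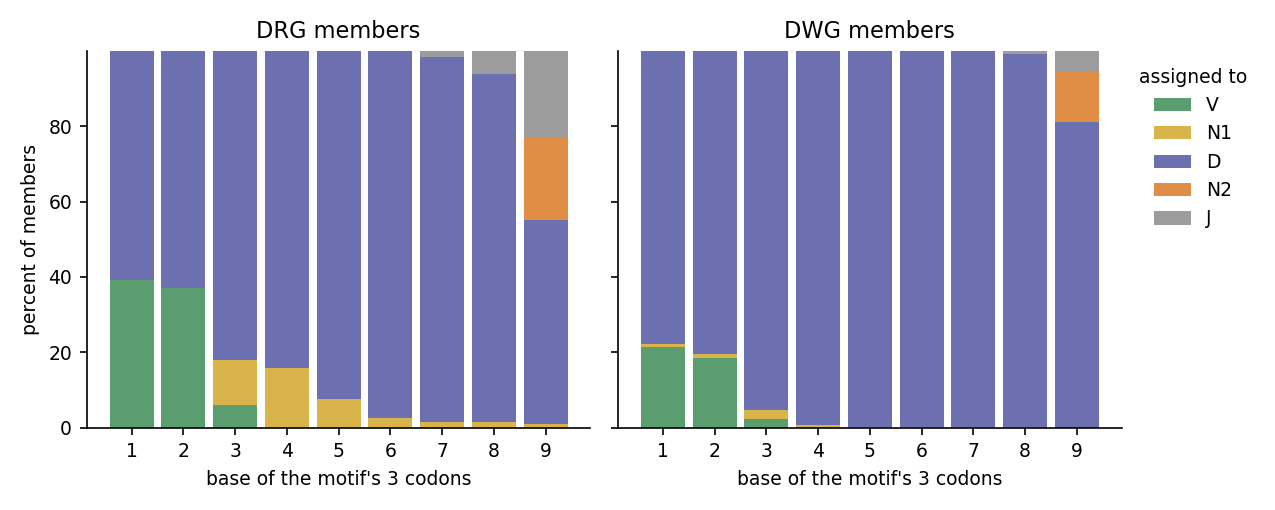
Segment to which the deposited junction indexes assign each of the 9 bases of the motif codons, in percent of the 194 DRG (left) and 407 DWG (right) members of 7 mice pooled. V supplied the first base in 39.2% of DRG and 21.4% of DWG members, and D supplied the ninth in 54.1% and 81.1%.

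Neighbouring segments and N bases completed the motif more often for DRG than for DWG. All 9 bases were assigned to D in 59 of 194 DRG members (30.4%) and in 256 of 407 DWG members (62.9%). V supplied the first base in 76 DRG (39.2%) and 87 DWG members (21.4%). At least 1 base was an N base in 69 DRG (35.6%) and 63 DWG members (15.5%). The ninth base came from J in 45 DRG (23.2%) and 23 DWG members (5.65%), and the glycine codon was the germline GGG in 51.5% and 80.6%. Per mouse, 6.85 to 8.75 bases on average were assigned to D in DRG members and 9.94 to 10.4 in DWG members, the latter segment being 2 bases longer. These shares are descriptions, since the rule reads the same letters.

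The motif sat earlier in DRG CDR3s. It began at CDR3 residue 5 in 75 of 194 DRG members (38.7%) and in 81 of 407 DWG members (19.9%), and at residue 6 in 72 (37.1%) and 228 (56.0%). The share that began at residue 5 was higher for DRG than for DWG in each mouse, at 32.6% (7NR) to 46.4% (2R) against 15.3% (5NR) to 28.9% (2R). The residue before the motif was most often serine for DRG (52 of 194) and arginine for DWG (111 of 407). After the motif, glycine followed 152 DWG members (37.3%) and 20 DRG members (10.3%), as in the germline reading of TCRBD02-01, where the next codon is a glycine codon, while alanine was the commonest residue after DRG (27 of 194).

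**Figure D3:**
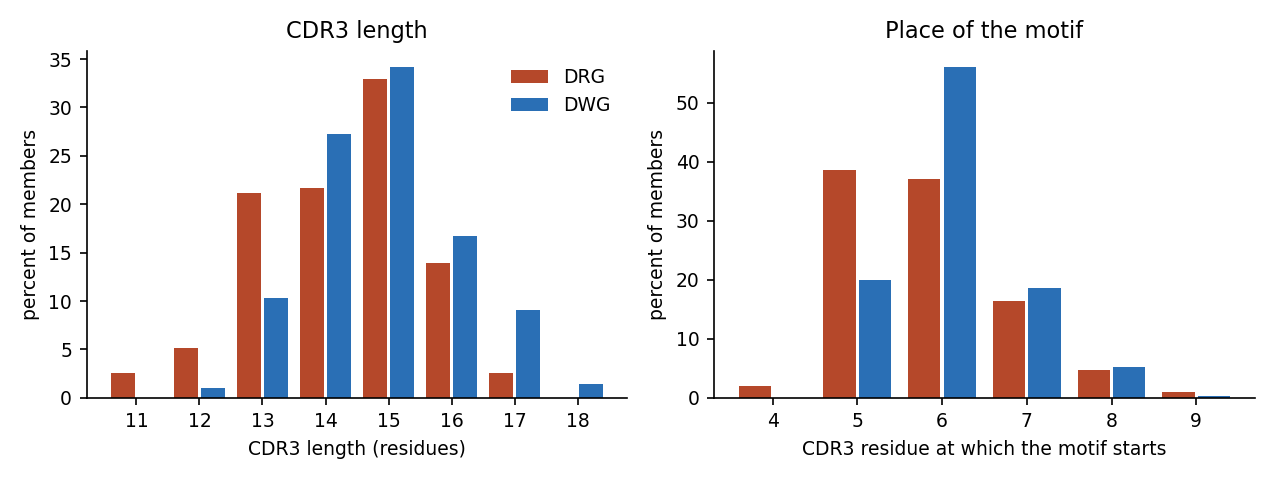
CDR3 length in residues (left) and the CDR3 residue at which the motif starts (right), in percent of the 194 DRG (red) and 407 DWG (blue) members of 7 mice pooled. DRG starts at residue 5 in 38.7% of its members and DWG at residue 6 in 56.0%. CDR3s of 11 to 13 residues are more frequent with DRG.

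J genes of cluster 1 were used by DRG and hardly at all by DWG. Of 194 DRG rearrangements, 76 (39.2%) used a cluster 1 J gene, in all 7 mice, and 2 of 407 DWG rearrangements did (0.491%). The share with a cluster 2 J gene among DRG members was 58.1%, 57.1% and 68.2% in 1R, 2R and 3R, and 76.2%, 69.7%, 69.2% and 45.7% in 4NR, 5NR, 6NR and 7NR. Among DWG members it was 98.9% in 1R and 7NR and 100% in the other 5 mice, where a count of 0 allows a cluster 1 share of up to 5.08% (5NR) to 17.6% (6NR). The mean difference was -36.2 percentage points (SD 9.93, n = 7), lower for DRG in 7 of 7 mice (exact sign-flip permutation p = 0.0156, adjusted 0.0547 over 7 measures). The rule picks the D segment, and Trbd2 can be joined by deletion to cluster 2 J genes. The high share of DWG, in this test and in that against other rearrangements below, was therefore largely fixed beforehand. In-frame rearrangements with neither motif used cluster 2 in 65.3% to 69.9% per mouse. DWG lay 31.7 points above them in the mean (higher in 7 of 7 mice, exact p = 0.0156, adjusted 0.0781 over 10 comparisons of members with other rearrangements), and DRG differed from them by -4.52 points (lower in 5 of 7, exact p = 0.234).

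The 2 DWG rearrangements with a cluster 1 J gene had 1 template each. Both spelled aspartate with GAT, unlike TCRBD02-01, and only 5 bases (TGGGG, in 1R) and 6 bases (TGGGGG, in 7NR) of each were assigned to D. These runs occur in the germline TCRBD02-01 and not in TCRBD01-01. Without the leading T, the remaining GGGG and GGGGG occur in both segments, so the segment of origin rests on that T and was not tested. Restricted to members with the germline 8 bases, 0 of 388 DWG rearrangements used cluster 1, which allows a share of up to 0.773%, against 68 of 160 DRG rearrangements.

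Out-of-frame rearrangements encode no receptor, and gave the J use of the same D bases apart from the protein. The 8 bases GACTGGGG occurred in 660 of 3887 out-of-frame rearrangements, of which 0 used a cluster 1 J gene (a share of up to 0.455%). GACAGGGG occurred in 390, of which 190 (48.7%) used cluster 1. In any of the 3 frames of in-frame rearrangements, 1 of 1016 with the D2 bases and 253 of 622 (40.7%) with the D1 bases used cluster 1. The D2 bases were thus the more numerous in both frame types. Read in any frame, D1 made up 32.6% (1R) to 42.8% (2R) of both among in-frame rearrangements. Among out-of-frame ones it made up 27.8% (2R) to 42.3% (7NR). Among in-frame rearrangements that read the bases as the motif, the D1 share was 29.8% in the mean over mice, against 36.4% out of frame in any frame. It was lower in 5 of 7 mice (exact sign-flip permutation p = 0.0938, adjusted 0.164 over 7 measures). That test sets 1 frame against all 3, so it does not compare like with like.

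**Figure D4:**
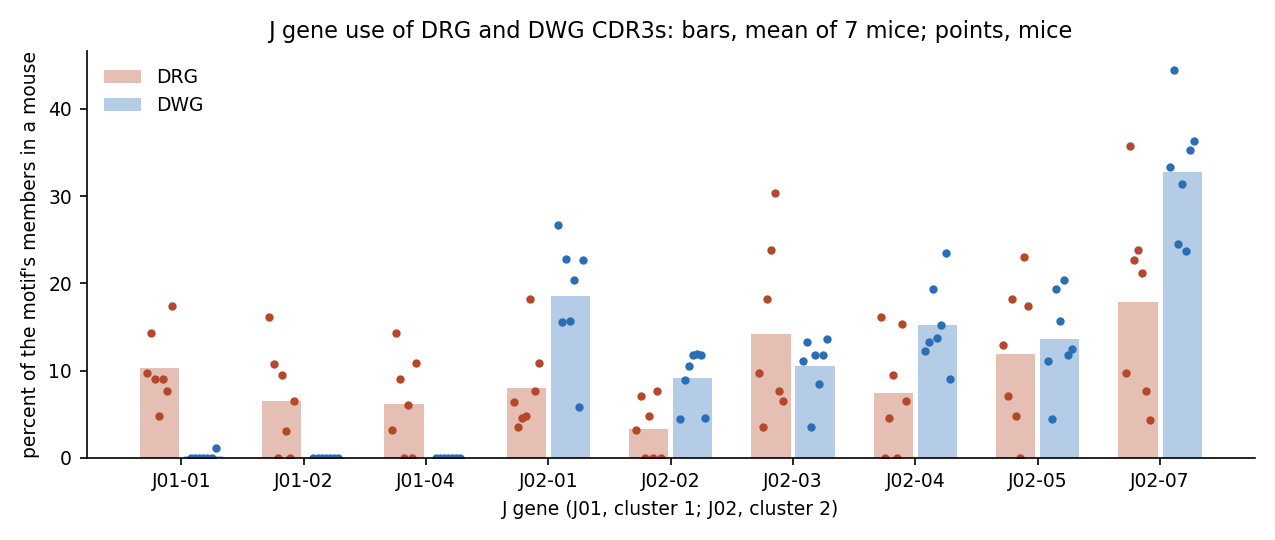
Share of the DRG (red) and DWG (blue) members of a mouse with each J gene, in percent, for the 9 J genes with at least 10 members. Bars are means of 7 mice and points are mice. Points of TCRBJ01-01 lie between 4.76% and 17.4% for DRG, and DWG is at 0 in 6 mice; TCRBJ02-07 is the most used J gene of both motifs.

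By gene, 3 of 9 J genes passed the test after adjustment, and 0 did under each alternative tried for J use, leaving out each mouse included. Without 1 mouse the smallest possible exact sign-flip p is 0.0312, which passes adjustment only if most genes reach it. With at least 2 templates, TCRBJ01-01 had under 10 members and was not tested. The D segment picked by the rule bears on the tests by gene too, through the near absence of cluster 1 among DWG members. TCRBJ01-01 was used by 22 DRG members (10.3% in the mean over mice) and 1 DWG member (0.162%), a difference of 10.1 points (SD 3.91, n = 7, higher in 7 of 7 mice). TCRBJ02-07 was used by 33 DRG members (17.9%) and 132 DWG members (32.7%), a difference of -14.8 points (SD 12.6), and TCRBJ02-02 by 5 (3.26%) and 33 (9.11%), a difference of -5.85 (SD 4.13), both lower in 7 of 7 mice. Each had an exact sign-flip permutation p of 0.0156 and an adjusted p of 0.0469. TCRBJ02-01 (17 DRG and 85 DWG members) and TCRBJ02-04 (13 and 56) had unadjusted exact permutation p of 0.0312 and 0.0469 and adjusted p of 0.0703 and 0.0804. TCRBJ02-05 was used by 22 DRG and 56 DWG members and TCRBJ02-03 by 27 and 43, and neither passed. Among DRG members, TCRBJ02-03 ranged from 3.57% in 2R to 30.3% in 5NR.

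With cluster 1 set aside, no cluster 2 gene passed the test. Within the 118 DRG and 405 DWG members that used cluster 2, a comparison chosen after seeing the data, 0 of 6 J genes had an exact sign-flip p under 0.05 with or without adjustment. TCRBJ02-07 then took 27.8% of DRG and 32.8% of DWG members in the mean over mice (lower in 4 of 7 mice, exact permutation p = 0.484), and TCRBJ02-02 took 5.06% and 9.13% (lower in 5 of 7, exact p = 0.125). When rearrangements of a mouse with the same CDR3 bases were merged, 5 of 9 J genes had an unadjusted and 0 an adjusted exact sign-flip p under 0.05. The same counts were found with CDR3s of the same amino acids, V and J merged, with GTG or GQG kept, and with the germline D bases alone. With GTG or GQG kept the 5 did not include TCRBJ02-02, whose difference was -5.55 points (exact sign-flip p = 0.0938).

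V use was spread over 22 V genes for DRG and 21 for DWG. The most used by DRG members were TCRBV13-03 (36 of 194), TCRBV03-01 (21), TCRBV13-02 (19), and TCRBV01-01 and TCRBV13-01 (16 each). DWG members most used TCRBV13-02 (51 of 407), TCRBV03-01 (46), TCRBV12-01 (34), TCRBV05-01 (30) and TCRBV19-01 (27). Of 18 V genes with at least 10 members, 0 had an adjusted p under 0.05 and 3 had an unadjusted exact sign-flip permutation p under 0.05.

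TCRBV12-01, of the Vβ5 family, was all but absent with DRG. It was called in 1 DRG member, in 1R, and in 34 DWG members, at 5.26% (3R) to 11.9% (5NR) of a mouse's DWG members. In rearrangements with neither motif it took 6.24% to 8.37% per mouse. The difference between the motifs was -8.19 points (SD 3.35, n = 7), lower for DRG in 7 of 7 mice (exact permutation p = 0.0156, adjusted 0.141 over 18 genes), and within cluster 2 J genes it was -7.88 (exact p = 0.0156, adjusted 0.250 over 16). TCRBV04-01 was used by 6 DRG and 25 DWG members, with a difference of -3.60 points (SD 2.57), also lower in 7 of 7 mice with an exact permutation p of 0.0156 and an adjusted p of 0.141. Within cluster 2 it was lower in 5 of 7, with an exact permutation p of 0.0625. The exact permutation p of TCRBV04-01 was 0.125 with germline D bases only, 0.250 with matching D calls and 0.297 with at least 2 templates. It stayed under 0.05 in the remaining alternatives run. That of TCRBV12-01 was 0.0156 in each of the settings named here.

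TCRBV13-03, of the Vβ8 family, was the V gene most used with DRG. It took 9.68%, 10.7% and 13.6% of DRG members in 1R, 2R and 3R and 4.76%, 48.5%, 23.1% and 15.2% in 4NR, 5NR, 6NR and 7NR, against 4.44% to 7.02% of DWG members. The difference was 12.4 points (SD 14.7, n = 7), higher in 6 of 7 mice, with an exact sign-flip permutation p of 0.0312 and an adjusted p of 0.188, and 7.29 without 5NR (exact permutation p = 0.0625). In 29 of the 36 DRG members with this V gene the motif began at residue 5, and in 27 its first 2 bases were assigned to V; among the 22 DWG members these numbers were 11 and 9.

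Of the 16 TCRBV13-03 DRG members of 5NR, 7 had identical CDR3 bases. The most abundant of the 7 had 526 templates and the other 6 had 1 template each, and they differed from it in the V part of the read, before the CDR3. Over all mice, 9 DRG members (4.64%), 7 DWG members (1.72%) and 460 of 6295 in-frame rearrangements with neither motif (7.31%) had the CDR3 bases of a more abundant rearrangement of the same mouse, and 8, 7 and 409 of these had a single template. Their origin was not tested. With such rearrangements merged, the TCRBV13-03 difference was 10.9 points (exact permutation p = 0.0312).

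N insertions did not separate the motifs. DRG members had 3.04 ± 0.491 N bases and DWG members 3.00 ± 0.531 (SD over 7 mouse means), with ranges of 2.38 to 4.00 and 2.24 to 3.90 that overlapped. The difference was 0.0466 (SD 0.858), with an exact sign-flip permutation p of 0.906 and an adjusted p of 0.984 over the 6 junction measures. At the V-D junction the means were 1.48 and 1.41, and at the D-J junction 1.56 and 1.59. No N base at all was found in 29 DRG (14.9%) and 58 DWG members (14.3%). Bases trimmed from V averaged 2.76 and 2.77, and bases trimmed from J 3.26 and 2.81 (exact p = 0.109, adjusted 0.328). In-frame rearrangements with neither motif had 3.44 N bases, and each motif lay below them in 6 of 7 mice, with an exact p of 0.109 for both.

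The mean DRG CDR3 was the shorter one in 6 of 7 mice, a difference that did not pass after adjustment. DRG CDR3s had 14.2 ± 0.425 residues and DWG CDR3s 14.9 ± 0.177 (SD over 7 mouse means), a difference of -0.634 residues (SD 0.459), lower in 6 of 7 mice, with an exact sign-flip permutation p of 0.0312 and an adjusted p of 0.188 over 6 measures. Within cluster 2 J genes the means were 14.0 and 14.9, and the difference was -0.840 residues (SD 0.477), lower in 7 of 7 mice (exact p = 0.0156). With medians in place of means the difference was -0.571 (exact p = 0.250), and among members with at least 2 templates -0.525 (exact p = 0.0938). Bases assigned to D averaged 8.33 in DRG and 10.2 in DWG members over 7 mouse means. The rule picks residues that D encodes, so the length tests, the next included, are not free of the rule. How much of the length the rule sets was not tested. DWG CDR3s were 0.961 residues longer than those with neither motif (13.9), in 7 of 7 mice (exact p = 0.0156, adjusted 0.0781 over 10 comparisons), and DRG CDR3s 0.327 residues longer (exact p = 0.109).

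Members with the germline 8 bases were also set against out-of-frame rearrangements that held the same bases in any frame. After adjustment 0 of 7 measures passed, and 3 had an unadjusted exact sign-flip p under 0.05. The cluster 2 share with the D2 bases, 1 of the 7, was 100% on both sides in every mouse. It could not pass, and the count of 0 depends on its being part of the adjustment. With at least 2 templates 2 measures passed after adjustment, but the single-template shares were left out, so the adjustment ran over fewer than 7 measures. With the same CDR3 bases merged 3 passed. The mean number of N bases and the share of single templates lay lower in frame. For the D1 bases the means were 2.78 in frame and 4.09 out of frame, lower in 7 of 7 mice (exact sign-flip permutation p = 0.0156). For the D2 bases they were 3.00 and 4.18, lower in 6 of 7 (exact p = 0.0312). The share with a single template was 58.1% in frame and 76.4% out of frame for D2 (lower in 7 of 7 mice, exact p = 0.0156) and 55.2% and 62.2% for D1 (lower in 5 of 7, exact p = 0.141). Adjusted over 7 measures, these p were 0.0547, 0.0729, 0.0547 and 0.182.

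Most members of both motifs were small. A single template was found for 116 DRG members (59.8%) and 241 DWG members (59.2%), against 57.9% of rearrangements with neither motif. The mean of the mouse shares was 59.8% ± 11.8 for DRG and 58.4% ± 7.52 for DWG (SD, n = 7), with an exact sign-flip permutation p of 0.703. More than 10 templates were found for 8 DRG (4.12%) and 15 DWG members (3.69%), and for 4.94% of rearrangements with neither motif. These held 75.0% of DRG templates, 30.9% of DWG templates and 83.5% of the templates with neither motif, a description over pooled mice that was not tested.

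The largest members are described without a test. The 3 largest DRG members held 63.4% of the 1395 DRG templates and the largest alone held 37.7%, whereas the 3 largest DWG members held 10.6% of the 945 DWG templates. The largest DWG member had 46 templates. Only 3 members exceeded 1% of a mouse's productive templates, 2 with DRG and 1 with DWG. Without the 3 largest members, 510 DRG and 845 DWG templates remained.

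**Figure D5:**
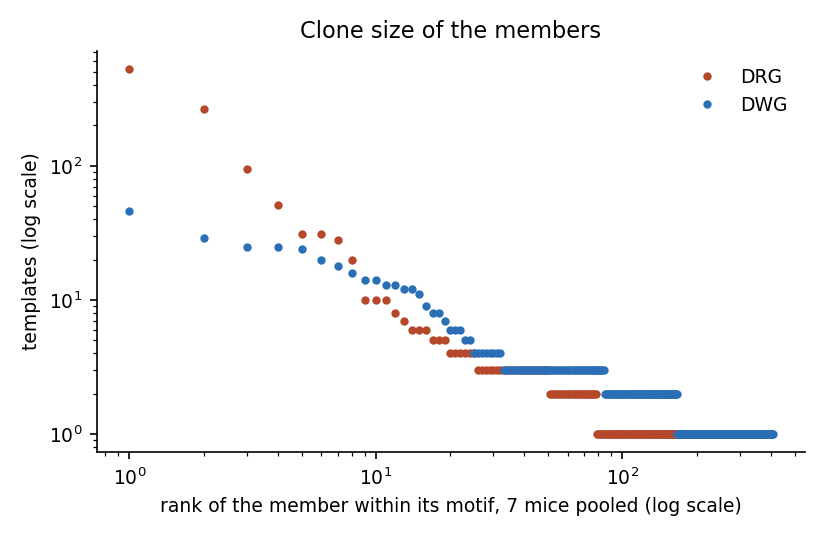
Templates of each member against its rank within its motif, 7 mice pooled, both axes on a log scale; DRG in red (194 members) and DWG in blue (407 members). The DRG points reach 526 templates and the DWG points 46, and both end in a long run of members with 1 template.

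The largest DRG clone was the TCRBV13-03 and TCRBJ02-03 rearrangement shown above, with a CDR3 of 15 residues. It held 526 of 11741 productive templates in 5NR, or 4.48% (95% Wilson interval 4.12 to 4.87), 31 in 3R (0.314%), 6 in 6NR (0.257%) and 3 in 7NR (0.0198%), and was not found in 1R, 2R or 4NR, where a count of 0 allows up to 0.0217%, 0.0351% and 0.0593%. Its first 2 motif bases were assigned to V, the other 7 to D, and its 3 N bases lay between D and J. The D call was a tie.

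The second DRG clone, with TCRBV29-01 and TCRBJ01-02, a CDR3 of 16 residues and 8 N bases before D, held 264 of 13807 templates in 1R, or 1.91% (1.70 to 2.15), and was found in no other mouse. A TCRBV03-01 and TCRBJ02-01 clone of 15 residues followed, with 95 templates in 1R (0.688%). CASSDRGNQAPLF, from TCRBV13-03 and TCRBJ01-05 with no N base, held 51 templates in 5NR (0.434%) and 3 in 7NR.

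The most frequent DWG clone, with TCRBV19-01 and TCRBJ02-07 and 15 residues, held 25 of 2332 templates in 6NR, or 1.07% (0.727 to 1.58), and 5 in 7NR (0.0329%). The TCRBV19-01 and TCRBJ02-02 clone of 16 residues held 46 templates in 2R (0.538%), 2 in 6NR and 1 in 5NR. A rearrangement of the same V and J genes and length, with aspartate preceded by leucine, held 24 templates in 4NR (0.474%) and 5 in 1R. A TCRBV16-01 and TCRBJ02-05 clone of 14 residues held 7 templates in 6NR (0.300%), and a TCRBV29-01 and TCRBJ02-04 clone of 15 residues held 29 in 3R (0.294%) and 1 in 7NR. All 5 used cluster 2 J genes, as did all but 2 DWG members.

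Sharing between mice did not separate the motifs from each other or from other rearrangements by the tests run. Of 163 distinct DRG amino acid sequences, 10 (6.13%) were found in 2 or more mice, and of 345 distinct DWG sequences, 23 (6.67%). Both R and NR mice held 7 of the 10 and 15 of the 23. Per mouse, the share of members whose amino acid sequence was found in another mouse was 8.70% (7NR) to 33.3% (5NR) for DRG and 7.84% (4NR) to 41.2% (6NR) for DWG. The mean difference was -2.65 points (SD 11.1, n = 7; exact sign-flip permutation p = 0.531). The means were 17.0% for DRG and 19.6% for DWG, against 22.2% for rearrangements with neither motif (exact p = 0.203 and 0.312). In 5NR, 7 of the 11 shared DRG members were the rearrangements with identical CDR3 bases described above, and with these merged the mean difference was -3.97 (exact permutation p = 0.203).

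No nucleotide rearrangement was common to the mice for 2 of the 10 shared DRG sequences and for 11 of the 23 shared DWG sequences. Distinct rearrangements of shared DWG sequences held 1.65 N bases on average (SD 1.72, n = 54) and those of DWG sequences of 1 mouse 3.35 (SD 2.36, n = 338). For DRG the means were 2.67 (SD 1.83, n = 21) and 3.17 (SD 2.45, n = 162). These pool rearrangements over mice and were not tested.

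The most widely shared was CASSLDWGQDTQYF, found in 6 of 7 mice, all but 6NR, with 6 nucleotide rearrangements and 49 templates. Its rearrangements held 0 to 3 N bases and joined TCRBV12-01, or in 1 case TCRBV12-02, to TCRBJ02-05. The TCRBV12-02 case, with 1 template in 3R, had the CDR3 bases of a TCRBV12-01 rearrangement of that mouse with 4 templates. The capitals again mark the motif codons of 4 of the rearrangements. These 4 show the leucine and aspartate codons and the last glycine base changing while the protein stays the same.
2R, 3R and 7NR: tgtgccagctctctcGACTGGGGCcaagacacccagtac
1R and 4NR: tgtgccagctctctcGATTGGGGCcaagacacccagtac
5NR: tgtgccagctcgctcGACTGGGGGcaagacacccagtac
7NR: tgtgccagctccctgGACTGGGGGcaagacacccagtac
The first had 9, 4 and 1 templates in these mice and no N base. The second had 2 in 1R and 14 in 4NR, the third 1 and the fourth 14.

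Of the other DWG sequences found in 3 or more mice, a TCRBV13-02 and TCRBJ02-04 CDR3 of 15 residues was found in 5 mice with 5 rearrangements, at most 1 N base and 18 templates. A TCRBV19-01 and TCRBJ02-02 CDR3 of 16 residues was found in 4 mice with 74 templates. A CDR3 of 15 residues with TCRBJ02-05 and TCRBV17-01 or TCRBV29-01 was found in 3 mice (18 templates). Another of 15 residues, with TCRBJ02-01, was found in 3 mice with 7 rearrangements, 3 V genes and no N base in any. Its rearrangements in 1R all had TCRBV24-01 and identical CDR3 bases, with 8 templates for the largest and 1 for each other. The 7 are therefore not 7 ways of encoding the CDR3. The DRG sequences found in 3 or more mice were the CDR3 of the largest DRG clone (4 mice, 572 templates), a TCRBV01-01 and TCRBJ02-05 CDR3 of 15 residues that was 1 rearrangement in 3 mice (12 templates), and a TCRBV13-03 and TCRBJ01-03 CDR3 of 16 residues (3 mice, 6 templates).

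The other readings of the D segments were counted in the same way, with no exclusion. GTG, which both segments encode, was found in 622 in-frame rearrangements (9.01%) with 37.9% of productive templates, GQG in 265 (3.84%) with 5.68% and GLG in 249 (3.61%) with 0.933%. DRG was found in 199 (2.88%) with 2.10% and DWG in 413 (5.98%) with 1.45%. The shares with a single template were 54.7%, 55.5%, 59.0%, 60.8% and 59.6% in that order. These counts overlap where a CDR3 holds more than 1 of the motifs, and were not tested.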

How the data were processed

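Genomic DNA of CD8 T cells, positively selected from digested tumors, was assayed for TCRβ rearrangements with immunoSEQ, a multiplex PCR over V and J genes read out as 87-base sequences. Template counts were used as deposited, as raw whole numbers estimated per rearrangement by the service that ran the assay. The authors' files also give frame, CDR3 residues, V, D and J calls, insertions, deletions and junction positions; read counts were empty, the deposited overview was not used, and a genome build is not given in the sources used here. PCR between primers and sampling of the tumor add error that the intervals (95% Wilson) and the limits of a count of 0 (3 counts) do not cover.

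Members and lists were chosen with earlier results of these data known. Motif, J cluster (J01 or J02), N insertions (N1 plus N2), CDR3 length, templates and sharing were computed per mouse from rearrangements counted once. DRG and DWG were compared within mice by a two-sided exact sign-flip test over 128 patterns, R and NR by a two-sided exact permutation test, with Benjamini-Hochberg adjustment within each family; a V or J gene needed 10 members. Titles give 1 sample per mouse. A motif base was assigned to V, N1, D, N2 or J by the deposited positions. Members named were those over 1% in a mouse, the 5 most frequent of each motif and CDR3s of 3 or more mice; V and J genes named were the 5 most used per motif and those with an unadjusted p under 0.05. Germline D bases were read from untrimmed D segments of the files, and gene order from a RefSeq table. The tests were tested on simulated counts. Python 3.11.15, numpy 2.4.6, pandas 2.3.3, scipy 1.17.1 and matplotlib 3.10.9 were used. Alternatives were merging equal CDR3s, the exclusion rule, germline bases only, matching D call only, at least 2 templates, copies between mice, equal depth, template weights, medians, sharing by nucleotide, a replicate block and leaving out each mouse; merging by CDR3 bases and cluster 2 alone were added after seeing the data.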

Additional observations from a re-analysis of the deposited data

Results flagged for a closer look

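In a group of 4 NR mice, 1 value lay far from the other 3 for 2 of 14 motif measures tested. Chance marks about 1 in 20 where values are free to vary, which does not hold for the second of them, tied at 100% in 3 mice. The DRG share of productive templates was 5.56% in 5NR, against 0.830% to 0.986% in the other NR mice. The DWG share with a cluster 2 J gene was 98.9% in 7NR, against 100% in the others, through 1 rearrangement of 1 template.

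Rearrangements with a stop codon lie outside the in-frame set, and 9 of 136 held DRG or DWG, with 11 templates and at most 2 each. They numbered 3 in mouse 1R, 3 in mouse 5NR, 2 in mouse 7NR and 1 in mouse 4NR. In 8 the motif came before the stop. There were no control samples for comparison.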

How the results depend on the processing

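The side of the threshold was set by the unadjusted exact p for single comparisons and by the number of genes or measures with p under 0.05 for families. Without any 1 mouse, the excess of DWG rearrangements (-3.08 to -2.58 points) and the cluster 2 difference (-38.3 to -33.4) kept sign and threshold. Both also did so in the other alternatives run, at -3.45 to -2.46 and -44.8 to -32.6 points. The cluster 2 difference was largely fixed by the motif rule. The CDR3 length difference stayed below 0 but lost the threshold with at least 2 templates (-0.525), medians (-0.571) and template weights (-0.446), and without 6 of 7 mice in turn (-0.702 to -0.523). Without 1R it was -0.743 and kept the threshold at 0.0312, the smallest p that 6 mice allow.

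With the same amino acids, V and J merged, signs turned for the R minus NR difference in DWG rearrangements (-0.131) and the single-template difference (-3.30). At least 2 templates turned R minus NR in DWG templates (0.0621), sharing (5.31) and N insertions (-0.00122). It left 1 of 5 J genes with p under 0.05 and gave 4 instead of 2 differences from other rearrangements. After adjustment the latter count was 3 instead of 0. Single-template shares were left out of that family, so its adjustment ran over fewer tests and the adjusted counts cannot be compared. Equal depth turned the single-template difference (-6.03), as did template weights (-6.65). Germline bases alone turned it (-2.94), N insertions (-0.214) and R minus NR in DWG templates (0.0719). Matching D calls turned N insertions (-0.219), single templates (-3.63), the DRG minus DWG template share (-0.650) and R minus NR in DRG templates (0.550), and gave 3 J genes and 5 differences from other rearrangements. Merging by CDR3 bases turned single templates (-2.08) and R minus NR in DWG rearrangements (-0.0976) and gave 4 differences from other rearrangements. Sharing by nucleotide sequence turned to 1.06. Leaving out copies gave 3 J genes, and cluster 2 alone gave 0 J genes and 1 V gene in place of 3. None of the differences that turned sign had passed the threshold, and the causes were not tested.

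Without 1 mouse in turn, R minus NR ranged from -1.10 to -0.284 (DRG) and -0.179 to 0.40 (DWG) for rearrangements, and from -1.31 to 0.595 and -0.271 to 0.208 for templates. The DRG minus DWG template share ranged from -0.570 to 0.448, N insertions from -0.129 to 0.308, single templates from -0.839 to 3.39 and sharing from -5.31 to 1.06. The V gene count was 2 to 3, the J gene count 3 to 4 (5 with all mice; 0 after adjustment, where 6 mice allow no p under 0.0312), the count against other rearrangements 2 to 3 and that against out-of-frame rearrangements 2 to 3. After adjustment the last was 0 of 7 with all mice, 2 with at least 2 templates (over fewer than 7 measures) and 3 with CDR3 bases merged. The 7 include the cluster 2 share with the D2 bases, which did not vary. The 3 J genes called after adjustment became 0 in each alternative run for J use. TCRBJ01-01, 1 of the 3, was not tested with at least 2 templates or with cluster 2 alone.

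Titles number mice within R and NR, but the numbers share no animal. With them as a replicate block, R minus NR was -0.569 (DRG) and 0.272 (DWG) for rearrangements and -0.972 and -0.190 for templates, with exact p of 0.750 to 1.00 (smallest possible 0.250, from 3 pairs). With 13 DRG and 17 DWG members, 6NR limits every mean to which it adds 1 value in 7.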
